A study of Mus musculus with 9 samples.

Results

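Messenger RNA levels of 44 genes of DNA replication were followed in mouse neural stem cells depleted of Rad21, which encodes the kleisin of cohesin. The genes were a given list of symbols covering origin recognition, licensing, the replicative helicase, the clamp and its loader, the polymerases, lagging strand maturation, the single-strand binding protein RPA and the supply of deoxynucleotides. All 44 had a row among the 24503 genes of the count table, and all 44 were among the 13560 genes left after a filter on low counts. Each of the 3 groups had 3 libraries. The shRad21_2 and shRad21_1 groups each received 1 short hairpin RNA against Rad21, and the shNT group received a non-targeting control hairpin. The cells were primary cultures from E13.5 embryonic cortex, enriched as neurospheres and then expanded on laminin (5 µg/mL) in medium with FGF (10 ng/mL) and EGF (20 ng/mL). Viral particles carried the hairpins into the cells. Every group had the genotype wild type (Phf2flox/flox), so the controls carried floxed Phf2 alleles too. The labels give no time after infection and do not say whether infected cells were selected. Nor do they say whether the libraries of a group came from separate cultures or embryos, so the p-values reflect only how much the libraries of a group spread, possibly for technical reasons. In bulk RNA, fewer cells of a type and less RNA per cell cannot be told apart.

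DNA replication starts where the origin recognition complex sits on DNA and, with Cdc6 and Cdt1, loads the ring-shaped MCM2-7 complex. In S phase, Cdc45 and the GINS complex join MCM2-7 to form the active helicase, and DNA polymerases alpha, delta and epsilon copy the strands with the help of the sliding clamp PCNA. Many of these genes are transcribed under E2F factors as cells pass from G1 into S phase, and their mRNA levels are widely used as a readout of proliferation in neural progenitors.

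Rad21 itself stood at 82.0, 91.2 and 82.5 CPM (counts relative to the library total after TMM scaling, the unit of every level given) with shRad21_2, at 187, 174 and 178 CPM with shRad21_1 and at 531, 450 and 456 CPM with shNT. It was lowest in all 3 shRad21_2 libraries and intermediate in all 3 shRad21_1 libraries. Library totals lay between 34780003 and 46644607 counts, and the 44 genes had between 398 and 23957 counts in a library. Some libraries of a group lay closer together than others. Chi-square per gene was 2.17 between shRad21_1 replicates 2 and 3 and 3.13 between shNT replicates 2 and 3, against 22.2 to 67.5 for the other pairs within a group. shRad21_1 replicate 1 stood apart from the rest of its group. On the first principal component (60.2% of the variance) it lay at 12.6, between its group's other libraries at -20.3 and -21.2 and the shRad21_2 libraries at 50.8 to 58.3. Neural stem cell markers were present in every library, with 13 of 13 tested and a summed level of 7758 to 8821 CPM with shRad21_2, 7390 to 8892 CPM with shRad21_1 and 9095 to 9443 CPM with shNT. A large part of that sum was Nes, at 2490 ± 188 CPM with shRad21_2, 1460 ± 435 CPM with shRad21_1 and 1218 ± 93.8 CPM with shNT (SD, n = 3 each). The sum therefore does not show that the other markers were unchanged, and calls of single markers are given below.

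Under shRad21_2, 14 of the 44 replication genes rose and 1 fell relative to shNT, whereas none was called under shRad21_1 and 18 were higher with shRad21_2 than with shRad21_1. The largest increases over shNT belonged to Rrm2, the regulated subunit of ribonucleotide reductase, and Tk1, the cytosolic thymidine kinase. They were followed by Rpa3, Mcm7, Pole2 and Mcm10. The 1 gene that fell was Rpa1, the large subunit of RPA. A gene was called where its edgeR quasi-likelihood test gave a Benjamini-Hochberg adjusted p under 0.05 over all 13560 genes, and "rose" and "fell" are used for such calls.

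For shRad21_2 against shNT, the calls were 31.8% of the members higher and 2.27% lower, beside 21.1% of all genes tested higher and 22.5% lower (43.6% called in all). Log2 fold changes of the members ran from -0.24 to 0.66 with a median of 0.22, against a median of 0.01 over all genes, and 38 of 44 were positive. In 23 members every shRad21_2 library lay above every shNT library and in 2 every one lay below, beside 27.3% and 28.6% of all genes. The number of members called higher rested on particular libraries. It was 5 without shNT replicate 2 or 3 and 6 without shRad21_2 replicate 3, and it was 4 with the close pairs of libraries each summed into 1 (Mcm7, Mcm10, Rrm2 and Tk1). Scaling by library totals with no composition factor gave 7 members higher and 2 lower. In that scaling the split of all called genes was 2167 higher and 3541 lower, beside 2861 higher and 3056 lower in the TMM scaling, and the members' median was 0.15.

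For shRad21_1 against shNT, 0 members were called in either direction by edgeR, where 4.19% of all genes were called higher and 5.63% lower (9.82% in all). At an unadjusted p under 0.05 there were 4 of 44, with Orc4 higher and Gins1, Gmnn and Rfc2 lower. Over all genes tested, 3595 of 13560 had such a p, a larger share. limma-voom called 0, and the DESeq2 Wald test called Gins1 (-0.41, adjusted p = 0.0290) and Gmnn (-0.46, adjusted p = 0.0234) lower. With the replicate number as a block, 1 member, Gmnn, was called lower (-0.48, SE 0.12, edgeR adjusted p = 0.0450). The members' log2 fold changes ran from -0.46 to 0.25 with a median of -0.10, and 12 of 44 were positive. The median moved with single libraries, to -0.03 with 17 positive without shRad21_1 replicate 1 and to -0.04 with 15 positive without shNT replicate 1. In 2 members every shRad21_1 library lay above every shNT library and in 12 every one lay below, beside 20.3% and 19.9% of all genes. Without shRad21_1 replicate 1, 0 members were called.

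For shRad21_2 against shRad21_1, which differ in how far Rad21 mRNA was lowered and in the hairpin used, 18 members (40.9%) were called higher and 0 lower, beside 11.9% and 14.4% of all genes (26.3% in all). At an unadjusted p under 0.05, 32 members differed, of which Orc5 was the 1 lower, beside 5359 of the 13560 genes tested. The median log2 fold change was 0.28, against -0.00 over all genes, and 39 of 44 were positive. Every shRad21_2 library lay above every shRad21_1 library in 28 members and below in 1, beside 19.4% and 19.8% of all genes. The count was 14 without shRad21_1 replicate 1, the library that stood apart, with the calls of Mcm3, Cdc45, Prim2 and Fen1 lost. It was 11 without shRad21_1 replicate 2 or 3, 8 without shRad21_2 replicate 3, and 5 with close libraries summed (Mcm7, Gins1, Pold2, Rrm2 and Tk1). Scaling by library totals gave 9 higher and 1 lower, with 1095 higher and 2310 lower over all genes in place of 1608 and 1955. The members' median was then 0.22. The 3 comparisons share libraries (both hairpins share shNT, and the last shares its 3 shRad21_2 libraries with the first), so their values are set side by side and not counted as separate support.

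Library by library, the median of the 44 genes relative to the shNT mean was 0.14, 0.19 and 0.27 (log2 CPM) in shRad21_2 replicates 1 to 3, -0.22, -0.02 and -0.05 in shRad21_1 and 0.08, -0.06 and -0.03 in shNT. The shRad21_2 libraries were the 3 highest, shRad21_1 replicate 1 was the lowest, and the other shRad21_1 libraries lay within the shNT range. shRad21_1 replicate 1 was the lowest of its group for 34 of 44 members, beside 44.4% of all genes. shRad21_2 replicate 3 was the highest of its group for 35 of 44, beside 32.1% of all genes, and shNT replicate 1 for 39 of 44, beside 42.0%. The summed level of the 44 genes was 5376, 5515 and 5968 CPM with shRad21_2, 4175, 4761 and 4746 CPM with shRad21_1 and 5148, 4601 and 4687 CPM with shNT.

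**Figure D1:**
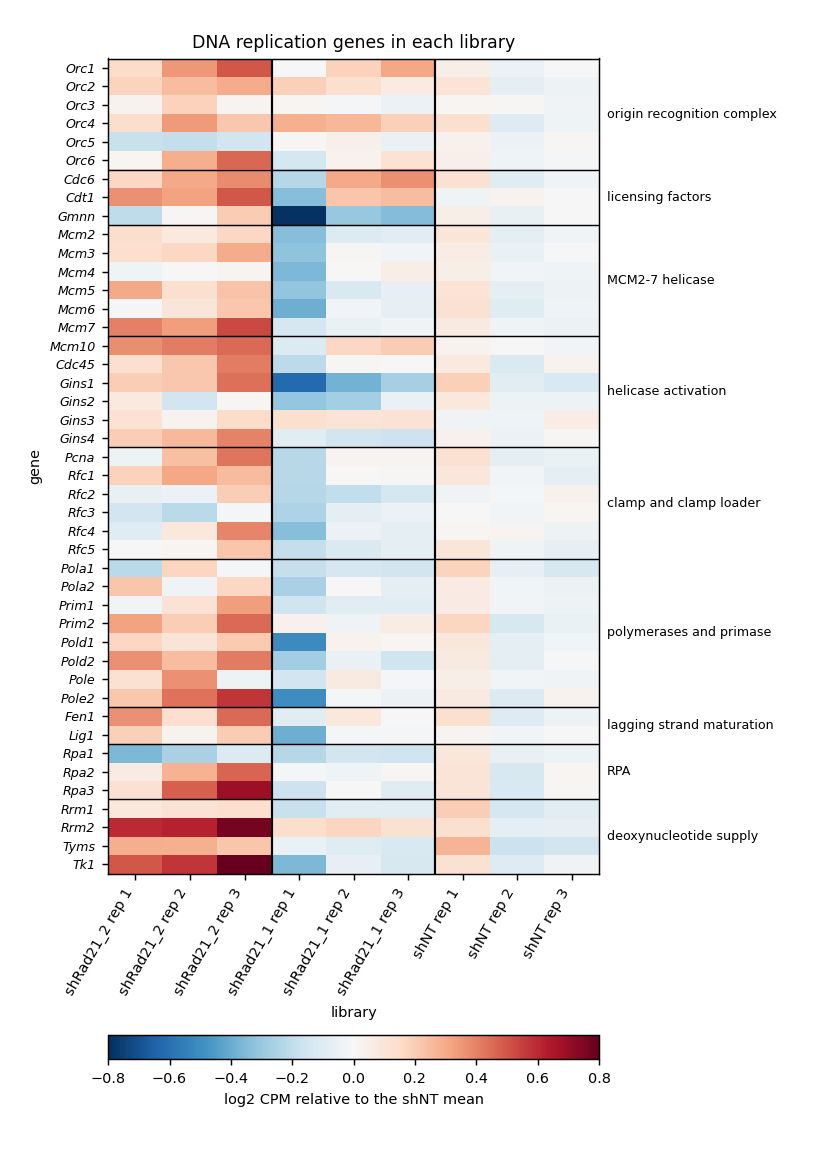
Log2 CPM of each of the 44 genes (rows, grouped by role) in each library (columns) relative to the mean of the 3 shNT libraries; red is higher and blue lower, on a scale from -0.8 to 0.8. Rrm2 and Tk1 are red in all 3 shRad21_2 libraries, and shRad21_1 replicate 1 is blue for most genes.

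The origin recognition complex marks origins and, with Cdc6 and Cdt1, opens the way for helicase loading. Of its 6 genes, Orc2 rose under shRad21_2 (16.7%, beside 21.1% of all genes called higher), and 0 were called in the other 2 comparisons. Orc2 had 89.8, 94.3 and 97.8 CPM with shRad21_2, 90.7, 86.7 and 83.2 CPM with shRad21_1 and 85.8, 75.4 and 77.1 CPM with shNT. All shRad21_2 libraries lay above all shNT libraries and overlapped those of shRad21_1. The log2 fold change against shNT was 0.24 (SE 0.08, edgeR adjusted p = 0.0257), a call that did not hold without shNT replicate 2 or 3 or shRad21_2 replicate 3, with values of 0.21 to 0.30 over the 6 fits that left out a library. Exons of Orc2 overlap those of Nif3l1 over 29.8% of their length, and Nif3l1 was higher too (43.8 CPM with shRad21_2, 35.5 CPM with shRad21_1 and 29.2 CPM with shNT; 0.58, edgeR adjusted p = 0.00209); since the strand setting of the counting is not given, the sharing of reads between them is uncertain. The other 5 subunits were not called. Orc1 came closest, at 0.34 under shRad21_2 (SE 0.12, edgeR adjusted p = 0.0504), with 11.98, 13.8 and 15.3 CPM with shRad21_2, 10.8, 12.3 and 13.4 CPM with shRad21_1 and 11.2, 10.5 and 10.8 CPM with shNT. Orc5 had the lowest value of the 6 genes, -0.17 against shNT (edgeR adjusted p = 0.0800), and its 3 shRad21_2 libraries lay below all the others.

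Licensing of origins is driven by Cdc6 and Cdt1 and held back by geminin, the product of Gmnn, which binds Cdt1. Cdt1 rose under shRad21_2, and Gmnn was higher with shRad21_2 than with shRad21_1. Cdt1 had 70.2, 68.4 and 77.2 CPM with shRad21_2, 43.1, 63.8 and 64.7 CPM with shRad21_1 and 53.2, 55.8 and 54.8 CPM with shNT. The shRad21_2 libraries did not overlap either other group, and shRad21_1 replicate 1 was the lowest of all 9. The log2 fold change against shNT was 0.40 (SE 0.14, edgeR adjusted p = 0.0392), a call lost on leaving out any of the 6 libraries (0.34 to 0.44). Gmnn had 33.6, 38.9 and 44.6 CPM with shRad21_2, 22.4, 31.4 and 30.4 CPM with shRad21_1 and 40.0, 37.2 and 38.8 CPM with shNT. All shRad21_1 libraries lay below both other groups, and shRad21_2 overlapped shNT. Between the hairpins Gmnn differed by 0.48 (SE 0.14, edgeR adjusted p = 0.0333), lost without shRad21_1 replicate 3 or shRad21_2 replicate 2 or 3 (0.34 to 0.57). Against shNT its value was 0.01 under shRad21_2 and -0.46 under shRad21_1 (SE 0.14, edgeR adjusted p = 0.0669, and 0.0450 with the replicate block). Cdc6, the loading ATPase, was not called, at 44.1 ± 3.25 CPM with shRad21_2, 40.7 ± 8.55 CPM with shRad21_1 and 36.2 ± 2.84 CPM with shNT (SD, n = 3 each).

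The 6 MCM2-7 subunits form the hexamer at the core of the helicase, and their genes differed in which were called. All 6 had positive values between the hairpins, 5 under shRad21_2 against shNT and 0 under shRad21_1. Whether the 6 genes differed from each other was not tested. Mcm7 rose under shRad21_2 and the other 5 were not called against shNT, with values from -0.00 for Mcm4 to 0.22 for Mcm5 (edgeR adjusted p = 0.98 and 0.0667). Between the hairpins, Mcm2, Mcm3, Mcm5 and Mcm7 were higher with shRad21_2. Mcm4 (0.09, SE 0.10) and Mcm6 (0.25, SE 0.11) were not called. The calls were 16.7% of the group against shNT and 66.7% between the hairpins, beside 21.1% and 11.9% of all genes called higher. Mcm7 (chromosome 5, 138164583 to 138172422 of mm10) had 365, 349 and 398 CPM with shRad21_2, 252, 266 and 271 CPM with shRad21_1 and 291, 270 and 268 CPM with shNT. The shRad21_2 libraries stood clear of both other groups. Its log2 fold change was 0.42 against shNT (SE 0.07, edgeR adjusted p = 0.00147) and 0.50 against shRad21_1 (SE 0.07, adjusted p = 0.0015), and both calls were kept in every fit that left out a library and in every alternative tried. Mcm2 had 269, 258 and 274 CPM with shRad21_2, 193, 226 and 229 CPM with shRad21_1 and 262, 231 and 240 CPM with shNT. Mcm3 had 242, 247 and 271 CPM with shRad21_2, 176, 222 and 217 CPM with shRad21_1 and 229, 212 and 220 CPM with shNT. Mcm5 had 235, 208 and 223 CPM with shRad21_2, 153, 175 and 182 CPM with shRad21_1 and 205, 181 and 185 CPM with shNT. In all 3 genes the hairpins did not overlap, shRad21_1 replicate 1 was the lowest library, and only Mcm2 overlapped between shRad21_2 and shNT. Between the hairpins the log2 fold change was 0.30 for Mcm2 (SE 0.08, edgeR adjusted p = 0.0258), 0.30 for Mcm3 (SE 0.10, adjusted p = 0.0403) and 0.38 for Mcm5 (SE 0.09, adjusted p = 0.0118). The call of Mcm5 was kept without each library in turn. That of Mcm3 was lost without any of the 6 (0.21 to 0.37), and that of Mcm2 without shRad21_1 replicate 2 or shRad21_2 replicate 1 or 3 (0.23 to 0.35).

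**Figure D2:**
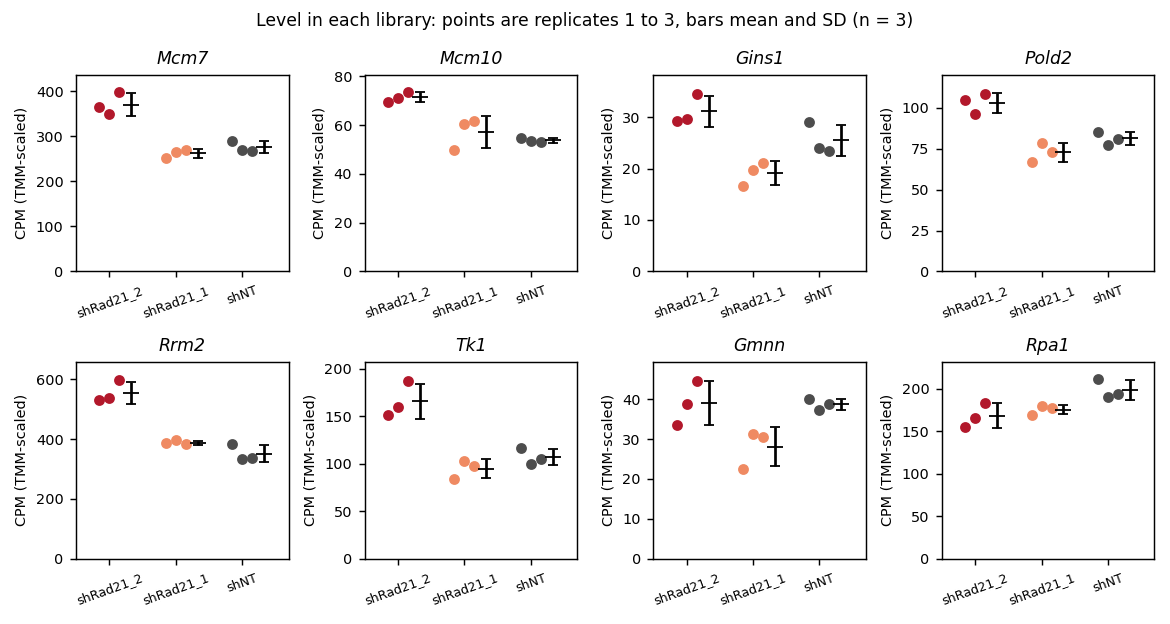
CPM of 8 genes in each library, with points for replicates 1 to 3 from left to right in each group and bars for the mean and SD (n = 3); every vertical axis starts at 0. Mcm7, Mcm10, Pold2, Rrm2 and Tk1 have all 3 shRad21_2 points above both other groups, Gmnn and Gins1 have shRad21_1 lowest, and Rpa1 has shNT highest.

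Promoter sequences are shown for the 4 MCM genes whose window holds an E2F motif, because these genes share the motif and differed in their calls. Windows of 300 bases, from 250 before to 50 after the transcript start, came from RefSeq (GRCm38.p6) and existed for 36 of the 44 genes. The motif was searched on both strands as TTTCCCGC, TTTCGCGC, TTTGCCGC or TTTGGCGC, with overlaps allowed, and capitals mark the matches. It was found in 14 of the 36 members (38.9%), beside 704 of 27025 genes with a window (2.61%).
Mcm3 (chr1:20820263-20820562, minus strand): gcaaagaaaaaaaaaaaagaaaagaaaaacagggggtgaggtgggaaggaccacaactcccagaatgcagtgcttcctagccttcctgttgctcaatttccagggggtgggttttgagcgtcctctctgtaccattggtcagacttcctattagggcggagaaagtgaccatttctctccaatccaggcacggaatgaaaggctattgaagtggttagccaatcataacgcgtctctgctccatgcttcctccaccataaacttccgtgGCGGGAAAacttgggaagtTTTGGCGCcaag
Mcm5 (chr8:75109259-75109558, plus strand): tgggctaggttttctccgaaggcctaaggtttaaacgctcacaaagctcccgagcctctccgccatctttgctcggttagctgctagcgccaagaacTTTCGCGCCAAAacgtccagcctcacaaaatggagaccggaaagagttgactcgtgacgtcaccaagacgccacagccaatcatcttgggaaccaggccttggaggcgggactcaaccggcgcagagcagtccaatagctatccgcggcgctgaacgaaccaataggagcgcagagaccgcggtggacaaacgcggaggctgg
Mcm6 (chr1:128359656-128359955, minus strand): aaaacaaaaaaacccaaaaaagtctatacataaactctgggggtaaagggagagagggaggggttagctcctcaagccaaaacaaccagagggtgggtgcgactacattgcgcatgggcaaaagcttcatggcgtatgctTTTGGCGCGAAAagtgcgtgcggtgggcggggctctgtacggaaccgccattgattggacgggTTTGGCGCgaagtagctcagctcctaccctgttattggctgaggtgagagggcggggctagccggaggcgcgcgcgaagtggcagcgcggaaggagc
Mcm7 (chr5:138171834-138172133, minus strand): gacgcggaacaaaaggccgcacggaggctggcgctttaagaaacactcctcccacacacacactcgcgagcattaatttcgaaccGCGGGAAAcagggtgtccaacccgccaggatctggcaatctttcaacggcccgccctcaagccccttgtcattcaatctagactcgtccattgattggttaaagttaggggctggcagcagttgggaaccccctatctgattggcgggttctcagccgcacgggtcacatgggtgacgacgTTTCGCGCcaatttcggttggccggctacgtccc
Mcm3 and Mcm7 each have a match downstream of the start, Mcm5 has overlapping matches upstream, and Mcm6, which was not called in any comparison, has 3. A second RefSeq start of Mcm7 (chr5:138171217-138171516) has 0 matches.

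The values of members with and without a match are given as a description, with no test. The 14 members with a match had a median log2 fold change of 0.18 under shRad21_2 against shNT, with 3 called higher. The 22 members with a window and no match had a median of 0.25, with 9 called higher and 1 lower. The values were -0.11 with a match and -0.08 without under shRad21_1, and 0.26 and 0.29 between the hairpins. The CCAAT box was found in 63.9% of members with a window, beside 41.1% of genes, and the CHR element (TTTGAA or TTCGAA) in 19.4%, beside 21.7%. A match describes the letters in a window and is not evidence of binding. RefSeq windows were not given for Gins1, Gins2, Gins4, Gmnn, Mcm4, Pole, Prim2 and Rfc2.

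Helicase activation needs Cdc45, the 4 GINS subunits and Mcm10, which together turn the loaded MCM ring into a moving helicase. Under shRad21_2, 2 of these 6 genes rose (Mcm10 and Gins4), and 4 were higher with shRad21_2 than with shRad21_1 (Mcm10, Cdc45, Gins1 and Gins4). These were 33.3% and 66.7% of the group, beside 21.1% and 11.9% of all genes called higher. Mcm10 (chromosome 2, 4989714 to 5012791) had 69.5, 71.3 and 73.6 CPM with shRad21_2, 49.8, 60.4 and 61.9 CPM with shRad21_1 and 54.7, 53.6 and 53.0 CPM with shNT. The shRad21_2 libraries lay above all the others. Its log2 fold change was 0.41 against shNT (SE 0.09, edgeR adjusted p = 0.00434), kept without each library, and 0.32 against shRad21_1 (SE 0.09, adjusted p = 0.0258), lost without shRad21_1 replicate 2 or shRad21_2 replicate 3 (0.23 to 0.38). Cdc45 had 55.3, 58.7 and 67.0 CPM with shRad21_2, 43.6, 50.8 and 50.7 CPM with shRad21_1 and 53.3, 46.7 and 51.6 CPM with shNT. shRad21_2 lay above both other groups, which overlapped each other. The value was 0.26 against shNT (edgeR adjusted p = 0.0615) and 0.32 against shRad21_1 (SE 0.10, adjusted p = 0.0414), that call kept only without shRad21_2 replicate 1 (0.24 to 0.38).

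The GINS subunits differed in which were called. Gins1 (chromosome 2, 150905400 to 150931280) had 29.3, 29.6 and 34.5 CPM with shRad21_2, 16.6, 19.6 and 21.1 CPM with shRad21_1 and 29.0, 24.0 and 23.4 CPM with shNT. All shRad21_1 libraries lay below all shNT libraries, and all shRad21_2 libraries above them. The difference between the hairpins was 0.70 on the log2 scale (SE 0.13, edgeR adjusted p = 0.00386), kept without each library and in every alternative. Against shNT it was 0.29 under shRad21_2 (adjusted p = 0.0858) and -0.41 under shRad21_1 (adjusted p = 0.0671 by edgeR and 0.0290 by the DESeq2 Wald test). Gins4 had 45.4, 47.6 and 52.2 CPM with shRad21_2, 37.2, 35.8 and 35.3 CPM with shRad21_1 and 40.6, 38.4 and 40.0 CPM with shNT. The 3 groups did not overlap, with shRad21_1 lowest. It rose by 0.29 against shNT (SE 0.08, edgeR adjusted p = 0.0154), lost without shNT replicate 2 or 3 (0.23 to 0.33), and was higher by 0.42 than with shRad21_1 (SE 0.08, adjusted p = 0.00482), kept without each library. Gins2 and Gins3 were not called. Gins2 had values of -0.02, -0.21 and 0.19 in the 3 comparisons (shRad21_2 against shNT, shRad21_1 against shNT, shRad21_2 against shRad21_1), and its exons overlap those of Gse1 over 67.3% of their length. Gse1 fell under shRad21_2 (-0.58, edgeR adjusted p = 0.0450), and how the counting split reads between them is uncertain. Gins3 had values of 0.10, 0.12 and -0.02 in the same order.

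The clamp PCNA tethers polymerases to DNA, and the replication factor C complex (Rfc1 to Rfc5) loads it. Of these 6 genes, Rfc1, the large subunit of the loader, rose under shRad21_2 and was higher than with shRad21_1. That 1 of 6 was 16.7% in each comparison, beside 21.1% and 11.9% of all genes called higher. Rfc1 had 156, 170 and 164 CPM with shRad21_2, 118, 137 and 139 CPM with shRad21_1 and 146, 136 and 131 CPM with shNT. The shRad21_2 libraries lay above the rest, and the other groups overlapped. Its log2 fold change was 0.25 against shNT (SE 0.08, edgeR adjusted p = 0.0338), lost without shNT replicate 2 or 3 or shRad21_2 replicate 2 or 3 (0.21 to 0.29), and 0.32 against shRad21_1 (SE 0.08, adjusted p = 0.0200), kept without each library. Pcna was not called, with 350, 425 and 483 CPM with shRad21_2, 308, 366 and 365 CPM with shRad21_1 and 392, 342 and 347 CPM with shNT. Its lowest shRad21_2 library lay within the shNT range and the other two above it (0.22, SE 0.12, edgeR adjusted p = 0.165). Pseudogenes of Pcna are annotated, and how the counting treated reads they share is uncertain. The small loader subunits Rfc2 to Rfc5 were not called, and Rfc3 was the 1 gene of the group with a negative value under shRad21_2 (-0.12, adjusted p = 0.267).

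Polymerase alpha with its primase starts each strand, delta extends the lagging strand and epsilon the leading strand. Of the 8 genes, 3 were called higher with shRad21_2 both against shNT and against shRad21_1. They were Prim2, the large primase subunit, Pold2, an accessory subunit of polymerase delta, and Pole2, an accessory subunit of polymerase epsilon. The 3 genes were 37.5% of the group, beside 21.1% and 11.9% of all genes called higher in these comparisons. Pold2 (chromosome 11, 5872180 to 5878292) had 105, 96.5 and 108 CPM with shRad21_2, 66.9, 78.3 and 72.9 CPM with shRad21_1 and 85.4, 77.4 and 81.0 CPM with shNT. Its shRad21_2 libraries stood clear of the others. The log2 fold change was 0.34 against shNT (SE 0.08, edgeR adjusted p = 0.00737) and 0.50 against shRad21_1 (SE 0.08, adjusted p = 0.00233), both kept without each library. Prim2 had 54.5, 50.03 and 59.8 CPM with shRad21_2, 44.6, 42.8 and 45.5 CPM with shRad21_1 and 49.03, 39.8 and 42.0 CPM with shNT. Pole2 had 23.4, 27.2 and 29.9 CPM with shRad21_2, 14.2, 19.9 and 19.4 CPM with shRad21_1 and 21.2, 18.6 and 20.5 CPM with shNT. In both genes the shRad21_2 libraries lay above all the others, for Prim2 with 50.03 CPM in shRad21_2 replicate 2 close to 49.03 CPM in shNT replicate 1. Prim2 had values of 0.33 against shNT (SE 0.10, edgeR adjusted p = 0.0228) and 0.31 against shRad21_1 (SE 0.10, adjusted p = 0.0467). The first was lost without shNT replicate 2 or 3 or shRad21_2 replicate 3 (0.26 to 0.42), and the second was kept only without shRad21_2 replicate 2 (0.24 to 0.37). Pole2 had values of 0.41 against shNT (SE 0.14, edgeR adjusted p = 0.0378), kept only without shRad21_2 replicate 1 (0.33 to 0.51), and 0.59 against shRad21_1 (SE 0.14, adjusted p = 0.0150), lost without shRad21_2 replicate 3 (0.45 to 0.68). The catalytic subunits Pola1, Pold1 and Pole were not called, with values of -0.01, 0.16 and 0.16 under shRad21_2 (adjusted p = 0.951, 0.341 and 0.243).

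On the lagging strand, Fen1 trims the flaps of Okazaki fragments and Lig1 joins them. Fen1 rose and Lig1 was not called. Fen1 had 97.2, 82.7 and 103 CPM with shRad21_2, 71.2, 80.0 and 75.4 CPM with shRad21_1 and 82.5, 70.4 and 73.5 CPM with shNT. Its shRad21_2 libraries lay above all the others, the closest being 82.7 CPM beside 82.5 CPM in shNT replicate 1. The log2 fold change was 0.32 against both shNT (SE 0.10, edgeR adjusted p = 0.0239) and shRad21_1 (SE 0.10, adjusted p = 0.0383). Against shNT the call did not hold once shNT replicate 2 or 3 or shRad21_2 replicate 1 or 3 was left out (0.25 to 0.41), and against shRad21_1 it held only without shRad21_2 replicate 2 (0.25 to 0.41). Exons of the antisense gene Gm10143, which was not among the genes tested, cover 78.8% of those of Fen1, so reads of the pair could not be told apart if strand was not used. Lig1 stood at 218 ± 14.6 CPM with shRad21_2, 181 ± 26.2 CPM with shRad21_1 and 197 ± 3.05 CPM with shNT (SD, n = 3 each; 0.14 against shNT, edgeR adjusted p = 0.292).

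RPA coats single-stranded DNA as a trimer, and its genes moved in opposite directions under shRad21_2, with the same signs under each scaling tried. Rpa1, the large subunit, fell, while Rpa2 and Rpa3 rose. With close libraries summed 0 of the 3 were called, and whether the 3 genes differed from each other was not tested. Rpa1 had 154, 166 and 184 CPM with shRad21_2, 169, 179 and 178 CPM with shRad21_1 and 212, 190 and 193 CPM with shNT. Both hairpins lay below all shNT libraries and overlapped each other. Against shNT the log2 fold change was -0.24 under shRad21_2 (SE 0.08, edgeR adjusted p = 0.0344), kept only without shRad21_2 replicate 3 (-0.31 to -0.18), and -0.18 under shRad21_1 (SE 0.08, adjusted p = 0.192). Rpa2 had 68.3, 79.1 and 89.8 CPM with shRad21_2, 64.8, 63.6 and 65.6 CPM with shRad21_1 and 69.8, 59.6 and 66.0 CPM with shNT. Its shRad21_2 replicate 1 lay within the shNT range. The value against shNT was 0.28 (SE 0.10, edgeR adjusted p = 0.0496), lost without shNT replicate 2 or 3 or shRad21_2 replicate 2 or 3 (0.18 to 0.38) and kept in 2 of the 9 other alternatives. Rpa3 had 28.0, 35.9 and 41.5 CPM with shRad21_2, 23.0, 25.8 and 24.1 CPM with shRad21_1 and 27.7, 23.7 and 25.9 CPM with shNT. The shRad21_2 libraries lay above the rest but spread widely. Rpa3 rose by 0.45 against shNT (SE 0.14, edgeR adjusted p = 0.0233), lost without the same 4 libraries (0.31 to 0.59). It was higher by 0.53 than with shRad21_1 (SE 0.14, adjusted p = 0.0185), lost without shRad21_1 replicate 3 or shRad21_2 replicate 3 (0.39 to 0.67).

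Deoxynucleotides come from ribonucleotide reductase (Rrm1 and Rrm2), thymidylate synthase (Tyms) and the salvage enzyme thymidine kinase (Tk1). Rrm2 and Tk1 were called higher with shRad21_2 both against shNT, where they had the largest changes of the 44 genes, and against shRad21_1. Rrm2 (chromosome 12, 24708241 to 24714146) had 531, 538 and 596 CPM with shRad21_2, 387, 396 and 383 CPM with shRad21_1 and 383, 335 and 336 CPM with shNT. shRad21_2 stood far above both other groups. The log2 fold change was 0.66 against shNT (SE 0.08, edgeR adjusted p = 0.000165) and 0.51 against shRad21_1 (SE 0.08, adjusted p = 0.00174). Tk1 (chromosome 11, 117815526 to 117826092) had 152, 160 and 187 CPM with shRad21_2, 83.8, 103 and 98.2 CPM with shRad21_1 and 117, 100 and 105 CPM with shNT. Again shRad21_2 was well above the rest, and shRad21_1 overlapped shNT. Tk1 differed by 0.63 from shNT (SE 0.11, edgeR adjusted p = 0.00128) and by 0.81 from shRad21_1 (SE 0.11, adjusted p = 0.000839). These 4 calls were kept without each library in turn and in every other alternative tried. Tyms had 71.0, 70.6 and 67.6 CPM with shRad21_2, 55.9, 54.2 and 53.5 CPM with shRad21_1 and 70.2, 51.6 and 52.3 CPM with shNT. The hairpins did not overlap, and shNT replicate 1 lay with shRad21_2. Tyms was higher by 0.35 with shRad21_2 than with shRad21_1 (SE 0.11, edgeR adjusted p = 0.0422), kept only without shRad21_1 replicate 1 (0.34 to 0.38), and was not called against shNT (0.27, adjusted p = 0.0794). A Tyms pseudogene is in the table, so reads shared with it are uncertain. Rrm1 was not called, at 418 ± 7.36 CPM with shRad21_2, 357 ± 12.6 CPM with shRad21_1 and 387 ± 49.1 CPM with shNT (SD, n = 3 each).

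The RefSeq windows of Rrm2 and Tk1, the 2 members with the largest log2 fold changes under shRad21_2 against shNT, are shown for contrast with the MCM windows above, since neither holds a match to the E2F motif.
Rrm2 (chr12:24708004-24708303, plus strand): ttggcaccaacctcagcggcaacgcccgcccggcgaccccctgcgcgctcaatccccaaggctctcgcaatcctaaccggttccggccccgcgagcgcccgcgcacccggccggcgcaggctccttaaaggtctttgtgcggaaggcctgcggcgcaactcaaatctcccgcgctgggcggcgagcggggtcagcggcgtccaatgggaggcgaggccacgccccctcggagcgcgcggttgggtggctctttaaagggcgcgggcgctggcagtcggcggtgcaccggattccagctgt
Tk1 (chr11:117825965-117826264, minus strand): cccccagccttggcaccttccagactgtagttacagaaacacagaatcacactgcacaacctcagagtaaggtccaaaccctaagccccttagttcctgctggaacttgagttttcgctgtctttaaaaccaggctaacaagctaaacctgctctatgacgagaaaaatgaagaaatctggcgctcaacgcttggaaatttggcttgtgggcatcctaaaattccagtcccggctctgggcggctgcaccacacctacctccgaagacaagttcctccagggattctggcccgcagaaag
The absence of these letters in 300 bases says nothing about binding by the factor. The Rrm2 window holds 1 CCAAT box and the Tk1 window 0.

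**Figure D3:**
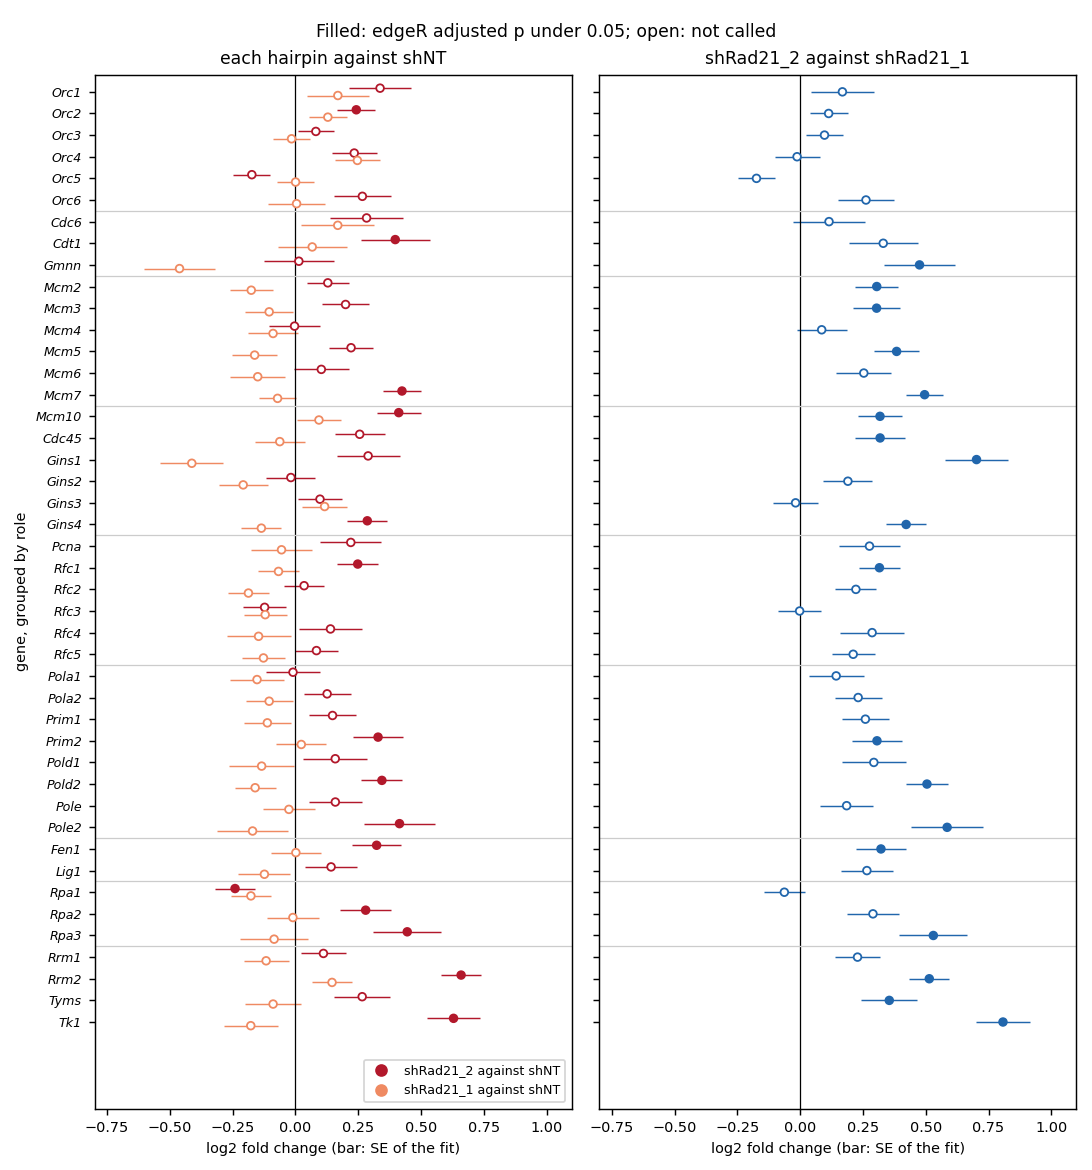
Log2 fold change of each of the 44 genes with the SE of the fit, for each hairpin against shNT (left) and for shRad21_2 against shRad21_1 (right); filled points have an edgeR adjusted p under 0.05. Under shRad21_1 no point is filled, and Rpa1 is the 1 filled point below 0.

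The 22 members called in no comparison had log2 fold changes from -0.17 (Orc5) to 0.34 (Orc1) under shRad21_2 against shNT, with a median of 0.12. Under shRad21_1 they ran from -0.21 (Gins2) to 0.25 (Orc4), with a median of -0.11, and between the hairpins from -0.17 (Orc5) to 0.29 (Pold1), with a median of 0.20. Of these 22, 17 were positive under shRad21_2, 6 under shRad21_1 and 18 between the hairpins. A missed threshold does not show that they were unchanged. They comprised Orc1, Orc3, Orc4, Orc5, Orc6, Cdc6, Mcm4, Mcm6, Gins2, Gins3, Pcna, Rfc2, Rfc3, Rfc4, Rfc5, Pola1, Pola2, Prim1, Pold1, Pole, Lig1 and Rrm1.

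Partners within a complex or pathway were set against each other as ratios of CPM per kb of the longest coding transcript, which do not depend on library scaling. The pairs were chosen after their values were seen, so they are given with no test. The ratio of Rrm2 to Rrm1, the 2 subunits of ribonucleotide reductase, was 2.36, 2.34 and 2.56 with shRad21_2, 2.06, 1.99 and 1.91 with shRad21_1 and 1.58, 1.73 and 1.68 with shNT. The 3 groups did not overlap and followed the order of Rad21 depletion, which cannot be told apart from the hairpin used. The other pairs did not all follow that order. The ratio of Cdt1 to its inhibitor Gmnn was 1.07, 0.905 and 0.891 with shRad21_2, 0.990, 1.05 and 1.09 with shRad21_1 and 0.686, 0.772 and 0.726 with shNT. Both hairpins lay above all shNT libraries and overlapped each other, although the members behind the ratio differed. Cdt1 was the gene that rose under shRad21_2, and Gmnn was the gene with the lower level under shRad21_1. The ratio of Rpa3 to Rpa1 was 1.38, 1.64 and 1.71 with shRad21_2, 1.03, 1.09 and 1.03 with shRad21_1 and 0.993, 0.945 and 1.02 with shNT, and that of Mcm7 to Mcm4 was 1.99, 1.86 and 2.09 with shRad21_2, 1.72, 1.41 and 1.39 with shRad21_1 and 1.499, 1.46 and 1.46 with shNT. For both, shRad21_2 stood above the other groups. The 3 groups did not overlap for Rpa3 to Rpa1 either, narrowly, with 1.027 in shRad21_1 replicate 3 beside 1.015 in shNT replicate 3. Rpa2 to Rpa1 stood at 1.31 ± 0.069 with shRad21_2, 1.03 ± 0.039 with shRad21_1 and 0.919 ± 0.040 with shNT (SD, n = 3 each), with no overlap. In the same order, Tk1 to Tyms was 5.25 ± 0.732, 3.83 ± 0.472 and 4.11 ± 0.404, and shRad21_1 overlapped shNT. Gins1 to Gins3 was 4.96 ± 0.367, 3.01 ± 0.383 and 4.35 ± 0.618, with shRad21_1 lowest and shRad21_2 overlapping shNT. A ratio shows unequal change of the pair and not which of them changed.

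**Figure D4:**
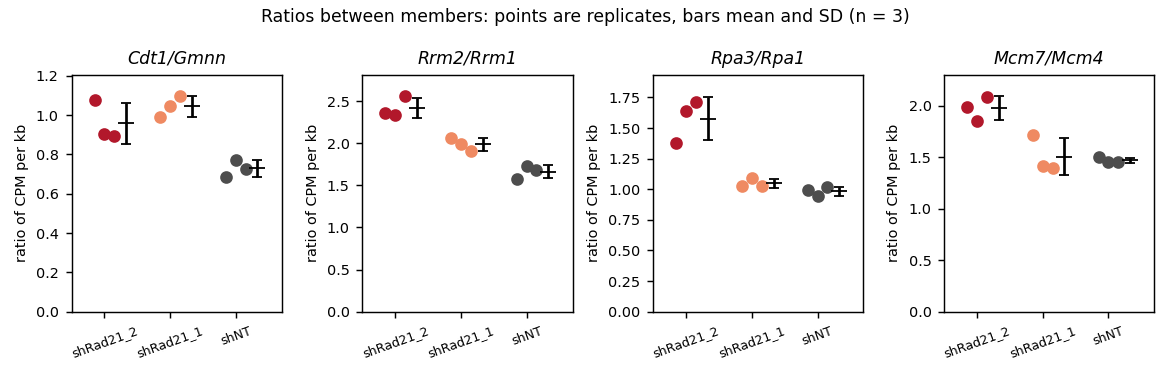
Ratios of CPM per kb between 4 pairs of members in each library (points) with the mean and SD of each group (n = 3); vertical axes start at 0. Rrm2/Rrm1 and, narrowly, Rpa3/Rpa1 separate all 3 groups, and Cdt1/Gmnn separates both hairpins from shNT.

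Measured per kb of the longest coding transcript, the order of levels in shNT began with Pcna (237 ± 18.1 CPM per kb), Rrm2 (160 ± 12.6), Rrm1 (96.8 ± 12.3), Mcm7 (93.2 ± 4.28) and Tk1 (74.6 ± 5.94; SD, n = 3 each). Rrm1 and Mcm7 did not differ beyond their spread. With shRad21_2, Pcna (276 ± 43.9 CPM per kb) and Rrm2 (253 ± 16.4) lay close together, with the mean of Rrm2 inside the SD of Pcna, followed by Mcm7 (125 ± 8.42), Tk1 (115 ± 12.8) and Rrm1 (105 ± 1.84). With shRad21_1 the top of the order was Pcna (228 ± 21.7 CPM per kb), Rrm2 (177 ± 3.06), Rrm1 (89.2 ± 3.15) and Mcm7 (88.7 ± 3.37). The lowest member was Orc1, at 4.54 ± 0.546 CPM per kb with shRad21_2, 4.03 ± 0.426 with shRad21_1 and 3.59 ± 0.122 with shNT. Within MCM2-7, whose proteins are assembled in equal number, the shNT levels ran from 56.3 (Mcm5) to 93.2 (Mcm7) CPM per kb. Which transcripts were expressed was not examined, so levels compared between genes depend on the length chosen.

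Among 50 other genes of replication and nucleotide supply, all tested, 21 rose and 2 fell under shRad21_2, 2 rose and 0 fell under shRad21_1, and 20 were higher and 2 lower with shRad21_2 than with shRad21_1. The medians in these 3 comparisons were 0.26, -0.02 and 0.27, and 28, 5 and 31 genes had an unadjusted p under 0.05. Over all 13560 genes, 7069, 3595 and 5359 had such a p. The calls were 42.0% higher and 4.0% lower under shRad21_2, beside 21.1% and 22.5% of all genes. They were 4.0% and 0% under shRad21_1, beside 4.19% and 5.63%. Between the hairpins they were 40.0% and 4.0%, beside 11.9% and 14.4%. Cdca7, a partner of the chromatin remodeller HELLS, stood at 134 ± 11.0 CPM with shRad21_2, 89.3 ± 1.21 CPM with shRad21_1 and 67.8 ± 9.44 CPM with shNT (0.98 under shRad21_2, SE 0.10, edgeR adjusted p = 7.57e-05). It was also called under shRad21_1 (0.40, adjusted p = 0.0372), a call kept only without shNT replicate 1 and lost with the replicate block (0.40, adjusted p = 0.0561), which left 1 higher in place of 2. Dctd, a deaminase that feeds thymidylate synthesis, rose under shRad21_2 (0.67, edgeR adjusted p = 0.000531) and shRad21_1 (0.56, adjusted p = 0.00783), and Ssrp1, a subunit of the histone chaperone FACT, rose under shRad21_2 (0.39, adjusted p = 0.00146). The 2 genes that fell were Rrm2b, the p53-induced ribonucleotide reductase subunit (-0.59, adjusted p = 0.000824), and Pold4, the smallest subunit of polymerase delta (-0.77, adjusted p = 0.00796). Each of the calls of Dctd, Ssrp1, Rrm2b and Pold4 against shNT was kept without each library. The 21 were 12 and 13 without shNT replicates 2 and 3, and 8 with close libraries summed. The 20 between the hairpins were 11 and 10 without shRad21_1 replicates 2 and 3, and 2 with close libraries summed.

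Cohesion is laid down as forks pass, and of 13 genes of cohesin and its loading and acetylation, 6 rose and 1 fell under shRad21_2, 2 rose and 1 fell under shRad21_1, and 3 were higher and 1 lower between the hairpins. Rad21 was the gene that fell in each. The higher calls were 46.2%, 15.4% and 23.1% of the list in these 3 comparisons, beside 21.1%, 4.19% and 11.9% of all genes. The lower calls were 7.69% in each, beside 22.5%, 5.63% and 14.4%. Stag1, a cohesin subunit, stood at 251 ± 20.9 CPM with shRad21_2, 162 ± 9.65 CPM with shRad21_1 and 106 ± 6.49 CPM with shNT (1.24 and 0.61 against shNT, edgeR adjusted p = 7.05e-06 and 0.00303). Between the hairpins Stag1 (0.64), Smc3 (0.34) and Smc1a (0.32) were higher. Smc3, a subunit of the ring, rose by 0.36 under shRad21_2 (adjusted p = 0.00213). Its partner Smc1a rose by 0.23 (adjusted p = 0.00971), lost without shNT replicate 2 (adjusted p = 0.0513). Esco1, a cohesin acetyltransferase, rose by 0.40 under shRad21_2 (adjusted p = 0.00381) and 0.54 under shRad21_1 (adjusted p = 0.0046). With close libraries summed the 6, 2 and 3 higher were 3, 0 and 1. Without shNT replicate 2 the 6 were 4.

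Regulators of E2F and the G1/S transition were called in both directions. Of 30 tested, 11 rose and 6 fell under shRad21_2, and 5 rose and 3 fell under shRad21_1. Between the hairpins 8 were higher and 4 lower. The medians were 0.16, 0.03 and 0.12. Under shRad21_2 the shares were 36.7% higher and 20.0% lower, beside 21.1% and 22.5% of all genes. Under shRad21_1 they were 16.7% and 10.0%, beside 4.19% and 5.63%. Between the hairpins they were 26.7% and 13.3%, beside 11.9% and 14.4%. Cdc25a, the phosphatase that activates CDK2, stood at 90.6 ± 2.80 CPM with shRad21_2, 65.2 ± 0.728 CPM with shRad21_1 and 48.5 ± 4.56 CPM with shNT, without overlap between groups. Its log2 fold change against shNT reached 0.90 for shRad21_2 (edgeR adjusted p = 2.86e-05) and 0.43 for shRad21_1 (adjusted p = 0.00981), the second call lost without shNT replicate 2 or 3. E2f3, an activating E2F, and E2f4, a repressive one, both rose by 0.68 under shRad21_2 (adjusted p = 0.000421 and 0.000608), kept without each library. The other calls under shRad21_1 were E2f6 (0.45), Ccne1 (0.35), E2f3 (0.36) and Myc (0.72) higher and Cdk6 (-1.95), Cdkn2a (-0.70) and Cdkn2c (-0.34) lower. Of the 8 calls under shRad21_1, that of Cdk6 was the 1 kept without each library. E2f6 lost its call without shNT replicate 2 or 3, Ccne1 and Cdkn2a without either of these or shRad21_1 replicate 2 or 3, and Myc without shNT replicate 1 or 3 or shRad21_1 replicate 2 or 3. The call of Cdkn2c held only without shRad21_1 replicate 1, and that of E2f3 was lost without any of the 6. Under shRad21_2 the calls of Myc (1.04, edgeR adjusted p = 0.000685) and Cdkn2a (-1.07, adjusted p = 0.000919) were kept without each library. Those of Ccne1 (0.30, adjusted p = 0.0154) and Cdkn2c (-0.25, adjusted p = 0.0266) under shRad21_2 were not. Between the hairpins, Cdk6 (-2.57), E2f6 (-0.42), Rb1 (-0.34) and Ccnd2 (-0.35) were lower, the last not called without shRad21_1 replicate 2 or 3. Cdk6, a G1 kinase, fell under shRad21_2 too (-4.51, edgeR adjusted p = 3.04e-05), a call kept without each library. It stood at 0.146 ± 0.103 CPM with shRad21_2, where 3 counts are 0.0664 to 0.0880 CPM. Its level was 0.929 ± 0.0752 CPM with shRad21_1 and 3.59 ± 0.885 CPM with shNT. The 5 higher and 3 lower under shRad21_1 became 3 and 2 when shNT replicate 1 was left out, 1 and 1 when shNT replicate 2 was, and 0 and 1 when shNT replicate 3 was. Leaving out shRad21_1 replicate 2 or 3 gave 2 and 1, and summing close libraries gave 0 and 0. The 6 lower under shRad21_2 became 4 when shNT replicate 1 or 2 was left out, and 3 when shNT replicate 3 or shRad21_2 replicate 3 was.

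Genes of G2 and mitosis, which mark later phases of the cell cycle, were called mostly higher with shRad21_2 too. Of 32 tested, 17 rose and 0 fell under shRad21_2 (21 at an unadjusted p under 0.05), 0 rose and 1 fell under shRad21_1, and 14 were higher and 0 lower between the hairpins (24 at an unadjusted p under 0.05). Their medians were 0.37, -0.03 and 0.42. Under shRad21_2 53.1% were called higher and 0% lower, beside 21.1% and 22.5% of all genes. Under shRad21_1 0% and 3.1% were, beside 4.19% and 5.63%. Between the hairpins 43.8% were higher and 0% lower, beside 11.9% and 14.4%. Smc4, a condensin subunit, stood at 323 ± 4.83 CPM with shRad21_2, 236 ± 9.08 CPM with shRad21_1 and 242 ± 26.7 CPM with shNT (0.42 against shNT, edgeR adjusted p = 0.00307). Ube2c, which serves the anaphase-promoting complex, rose by 0.65 (adjusted p = 0.00579) and the mitotic kinase gene Aurkb by 0.37 (adjusted p = 0.0061). The checkpoint gene Mad2l1 rose by 0.42 (adjusted p = 0.0103), lost without shNT replicate 2. The 17 were 5 without shNT replicate 2 or 3, 25 without shNT replicate 1, 9 without shRad21_2 replicate 1, 10 under library totals and 2 with close libraries summed. The 14 were 27 without shRad21_1 replicate 1, 6 without shRad21_1 replicate 2 or 3, 7 without shRad21_2 replicate 1, 24 with the replicate block and 4 with close libraries summed. Cdc25b, the gene called lower under shRad21_1 (-0.51, adjusted p = 0.0121), lost its call without shNT replicate 2 or 3. With the replicate block Ccnb2, a mitotic cyclin gene, was called lower under shRad21_1 too (-0.76, adjusted p = 0.00988, against 0.0559 without the block). Whether the share of cycling cells moved with the replication genes was not tested.

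**Figure D5:**
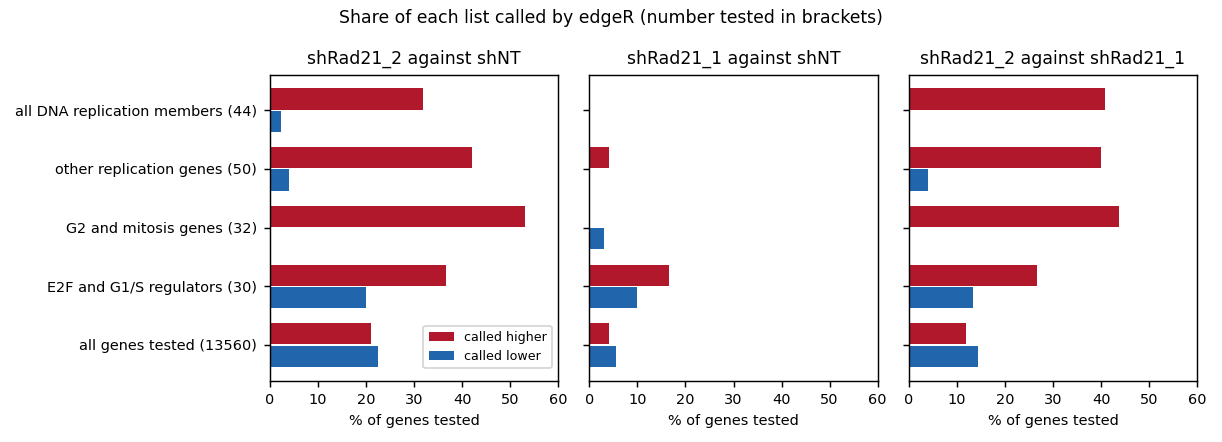
Share of each list of genes called higher (red) or lower (blue) by edgeR in the 3 comparisons, with the number tested in brackets and all genes tested as the last row; horizontal axes run from 0 to 60%. In shRad21_2 against shNT 31.8% of the 44 genes were called higher and 2.27% lower, beside 21.1% and 22.5% of all genes.

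Markers of other cell types moved under shRad21_2 as well, and their part in the results was not tested. Beside the marker counts that follow, 21.1% of all genes were called higher and 22.5% lower under shRad21_2. These shares were 4.19% and 5.63% under shRad21_1, and 11.9% and 14.4% between the hairpins. Of 10 astrocyte markers, all tested, 0 rose and 7 fell under shRad21_2 (8 differed at an unadjusted p under 0.05), 0 were called under shRad21_1 (3 at an unadjusted p under 0.05), and 7 were lower with shRad21_2 than with shRad21_1. Their summed level was 1130 to 1289 CPM with shRad21_2, 993 to 1745 CPM with shRad21_1 and 1852 to 2111 CPM with shNT, and none was at 0 in every library. Slc4a4 stood at 33.5 ± 7.23 CPM with shRad21_2, 159 ± 60.1 CPM with shRad21_1 and 196 ± 6.26 CPM with shNT, and Atp1b2 at 33.5 ± 1.01 CPM with shRad21_2, 166 ± 102 CPM with shRad21_1 and 361 ± 23.7 CPM with shNT (SD, n = 3 each). Aldh1l1 fell by 2.79 on the log2 scale and S100b by 2.55 (edgeR adjusted p = 2.39e-05 and 0.000398). Among neural stem cell markers 3 of 13 rose and 6 fell under shRad21_2, and 1 rose and 0 fell under shRad21_1. Between the hairpins 2 were higher and 2 lower. Under shRad21_2 that was 23.1% higher, close to the 21.1% of all genes, and 46.2% lower. Those that rose were Prom1 (2.55), Nes (1.03) and Pax6 (0.50), and those that fell included Slc1a3 (-0.95) and Sox9 (-0.69), each call kept without each library. With the replicate block Hes1, a Notch target, was also called lower under shRad21_1 (-0.53, adjusted p = 0.0105, against 0.402 without the block).

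Neuron markers, 9 of 13 tested, had 1 higher and 5 lower under shRad21_2, 1 higher and 2 lower under shRad21_1, and 0 higher and 3 lower between the hairpins. Their summed level was 956 to 1085 CPM with shRad21_2, 917 to 1046 CPM with shRad21_1 and 791 to 939 CPM with shNT. Most of that sum was Map2, at 989 ± 67.8, 885 ± 33.8 and 793 ± 78.8 CPM in the same order. Gad1 fell under both hairpins (-2.93 for shRad21_2 and -1.07 for shRad21_1, edgeR adjusted p = 2.78e-06 and 0.00259). Mapt (-2.36), Dcx (-2.81), Snap25 (-3.03) and Rbfox3 (-1.29) also fell under shRad21_2. The call of Rbfox3 was lost without shNT replicate 2 or 3 or shRad21_2 replicate 1 or 3. Snap25 had 0.177, 0.0293 and 0.0285 CPM with shRad21_2, where 3 counts are 0.0664 to 0.0880 CPM, and 0.712 ± 0.290 CPM with shNT. Rbfox3 stood at 0.209 ± 0.124 CPM with shRad21_2 and 0.504 ± 0.0809 CPM with shNT. Dcx had 0.576, 0.352 and 0.228 CPM with shRad21_2 and 5.06, 1.53 and 1.77 CPM with shNT. Mapt fell under shRad21_1 (-1.20, edgeR adjusted p = 0.0485), a call kept only without shRad21_1 replicate 1 and lost with the replicate block (adjusted p = 0.0696). Map2 was the 1 that rose under shRad21_2 (0.32, adjusted p = 0.0155), lost without shNT replicate 2 or 3. Syt1 was higher under shRad21_1 (2.65, adjusted p = 0.00775), with 97.8, 26.5 and 25.6 CPM with shRad21_1 and 7.18, 8.36 and 8.36 CPM with shNT. Gad1 (-1.86), Mapt (-1.16) and Syt1 (-2.33) were lower between the hairpins, the call of Mapt being lost without shRad21_1 replicate 2 or 3 or shRad21_2 replicate 2 or 3, and in 4 of the 9 other alternatives. Of 7 oligodendrocyte lineage markers tested out of 9, 1 rose and 5 fell under shRad21_2, 0 rose and 1 fell under shRad21_1, and 5 were lower between the hairpins. Their summed level was 2694 to 3087 CPM with shRad21_2, 3091 to 3229 CPM with shRad21_1 and 2755 to 2886 CPM with shNT. Most of that sum was Olig1 (1517 ± 120, 1850 ± 69.7 and 1613 ± 53.0 CPM) and Olig2 (1340 ± 85.4, 1224 ± 22.7 and 1064 ± 16.5 CPM). Olig2 was the 1 that rose (0.33). Those that fell included Pdgfra, Nkx2-2 (-2.54), Mbp (-3.33) and Cspg4 (-0.65). The call of Cspg4 was lost without shNT replicate 2 or shRad21_2 replicate 1 or 3. Mbp was low throughout, at 0.0924 ± 0.0726 CPM with shRad21_2 and 0.923 ± 0.0348 CPM with shNT. Pdgfra, called under both hairpins and under shRad21_1 not without any 1 of the shNT libraries, stood at 5.20 ± 0.969 CPM with shRad21_2, 31.2 ± 10.7 CPM with shRad21_1 and 62.3 ± 2.54 CPM with shNT. Microglia markers were near 0, with Aif1 and Cx3cr1 at 0 in every library and a sum of 0.343 to 0.704 CPM with shRad21_2, 1.38 to 2.47 CPM with shRad21_1 and 1.82 to 3.05 CPM with shNT. Only P2ry12 was tested, and it fell under shRad21_2 (-2.37, adjusted p = 0.00118). Of 8 mesenchyme and endothelium markers 4 were tested, of which 3 fell under shRad21_2, 0 were called under shRad21_1 (2 at an unadjusted p under 0.05) and 2 were lower between the hairpins. Those that fell were Acta2 (-4.35), Kdr (-1.56) and Pdgfrb (-2.29, kept only without shNT replicate 3). Pdgfrb stood at 0.0605 ± 0.0286 CPM with shRad21_2 and 0.313 ± 0.0993 CPM with shNT, and Acta2 at 0.148 ± 0.0563 and 3.09 ± 1.25 CPM. With the replicate block Acta2 was called higher under shRad21_1 (1.17, adjusted p = 0.0196, against 0.0847 without the block). These markers summed to 1.66 to 1.91 CPM with shRad21_2, 6.01 to 12.2 CPM with shRad21_1 and 5.33 to 9.07 CPM with shNT.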

How the data were processed

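The deposited table holds whole-number counts per gene symbol for 9 libraries, not normalised. Per the submitters' processing notes, FastQC, cutadapt, Trim Galore, Bowtie2 and RSEM were used with the mouse build mm10. Not given in the sources used here are the tool versions, the annotation, the strand setting and the rounding of RSEM estimates. Of 24503 gene rows, 6715 were 0 in every library. Totals of 34780003 to 46644607 counts per library set the precision.

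The test was edgeR's quasi-likelihood test (version 4.0.16, R 4.3.3) on the counts, with TMM scaling, filterByExpr by group and all 9 libraries in a fit of 3 group means. Two-sided tests were used, with a call at a Benjamini-Hochberg adjusted p under 0.05 over 13560 genes, with no minimum fold. Fold changes are log2 values of the first-named group over the second, with the SE of the fit. CPM of each library use TMM-scaled totals, and levels between genes are CPM per kb of the longest coding transcript in GENCODE vM21. The script was tested on simulated data. Alternatives were DESeq2 1.42.0 size factors and Wald test, limma-voom (limma 3.58.1), library totals, 2 other filters (none, and at least 1 CPM in all libraries of a group), fits of 2 groups, a replicate block, close libraries summed, and each library left out.

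The 44 members, the other lists and the pairs were chosen with earlier results of these data known. Values in every library are given for the 22 members called in at least 1 comparison. From each other list, up to 4 called members with the smallest p under shRad21_2 against shNT were named, and all called members where 5 or fewer were called in a direction, except 1 gene that is not reported here. Ccnb2 and Hes1 were named after their values were seen.

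Replicate numbers come from the sample titles. For shRad21_1 against shNT, the deviations of same-numbered libraries from their group means correlated at 0.24, 0.12 and 0.12, all above 0.1, so the blocked value is given there. Libraries with crossed numbers 2 and 3 correlated as much (0.16 and 0.15). The labels give no shared culture or day for a number.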

Additional observations from a re-analysis of the deposited data

How the results depend on the processing

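No called member changed direction under any of the alternatives or with any library left out. Members near 0 did, with 35 to 41 of 44 positive in shRad21_2 against shNT, 7 to 17 in shRad21_1 against shNT and 38 to 41 in shRad21_2 against shRad21_1 over all settings. Of the calls of members, 5 of 15 in shRad21_2 against shNT and 8 of 18 in shRad21_2 against shRad21_1 were kept without each library. Members called higher under shRad21_2 against shNT numbered 14, and 7 with library totals, 4 with close libraries summed and 5 to 17 with each library left out. The 1 lower became 2 with library totals and 0 with no filter, with 2 groups in the fit and with close libraries summed, and 0 to 1 with each library left out. All called genes numbered 5917, and 3707 with close libraries summed and 4263 to 5610 with each library left out. Under shRad21_1 against shNT, 0 members were higher in every alternative and with each library left out (0 to 0). The 0 lower became 2 with the DESeq2 Wald test and 1 with the replicate block, and stayed 0 with each library left out. All called genes numbered 1331, and 2042 with the DESeq2 Wald test, 130 with close libraries summed and 460 to 1599 with each library left out. Under shRad21_2 against shRad21_1 the 18 higher became 9 with library totals, 9 with 2 groups in the fit and 5 with close libraries summed, and 8 to 18 with each library left out. The 0 lower became 1 with library totals. All called genes numbered 3563, and 2233 with 2 groups in the fit, 1270 with close libraries summed and 2045 to 4486 with each library left out. The cause of these shifts was not tested, except that summing leaves fewer libraries. With the replicate block, members higher and lower were 14 and 1 under shRad21_2 and 17 and 0 between the hairpins. All called genes were then 6066, 1436 and 3643 for shRad21_2, shRad21_1 and the hairpins, and outside shRad21_1 the same-numbered libraries correlated at 0.02 to 0.09. Depth was not limiting for the members, which had at least 398 counts in every library. With 3 libraries a group, and close pairs among them, the spread behind each p rests on few values.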
